A study of Mus musculus with 6 samples.

Results

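The genes described here are 10 genes of brown fat heat production, taken by name from a table of 55401 mouse genes: Ucp1, Cidea, Cox7a1, Cox8b, Elovl3, Dio2, Ppargc1a, Prdm16, Otop1 and Plin5. All 10 were found in the table and all 10 passed the filter on low counts. They were measured by RNA sequencing of aorta from 2 groups of 3 samples each. The IL16-/-ApoE-/- mice (double mutants) lacked both the CD4-binding cytokine interleukin-16 and apolipoprotein E, the ligand that clears lipoprotein remnants. The ApoE-/- mice lacked apolipoprotein E alone. Mice of both groups thus carried the ApoE mutation, and all were fed high-fat food for 24 weeks, starting when they were 8 weeks old. No source used here states the sex, the strain background or whether a sample was 1 animal or a pool. The p-values therefore measure the spread between these samples only, which may be technical.

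The mouse aorta is wrapped in perivascular fat, which around the thoracic aorta is largely brown. Brown fat cells burn fatty acids in mitochondria and release the energy as heat. Noradrenaline from sympathetic nerves acts on beta-adrenergic receptors, cAMP rises, and uncoupling protein 1 (UCP1) lets protons back across the inner mitochondrial membrane without making ATP. Prdm16 and Ppargc1a set this program in the nucleus, Dio2 makes active thyroid hormone inside the cell, and Cox7a1 and Cox8b supply tissue-restricted subunits of cytochrome c oxidase. In bulk tissue, fewer fat cells and less RNA per fat cell cannot be told apart.

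Cox7a1 and Cox8b were the 2 of the 10 genes with every double mutant library above every ApoE-/- library. Of all tested genes 14.9% were separate in this way, and of those of at most 500 bases, as both are, 50.8%. The promoters of Cox7a1 and Cox8b are shown beside those of Ucp1 and Dio2. Sequences of 8 of the 10 genes were taken by symbol from RefSeq's promoter set (build GRCm38.p6). Elovl3 had no entry there, and Cidea was left out of this step, so its absence does not mean that the set lacks it. The stretches below are the 250 bases before the RefSeq start of Cox7a1 and Cox8b, of Ucp1, the gene that defines the program, and of Dio2, a gene of the same program whose levels ran otherwise. They read 5′ to 3′ on the gene's strand. Capitals mark matches on either strand to AGGTCA (the core motif of nuclear receptors), TGACG (the core of the cAMP response element) or CAGCTG (an E-box).
Cox7a1 (chr7:30183921-30184170, plus strand): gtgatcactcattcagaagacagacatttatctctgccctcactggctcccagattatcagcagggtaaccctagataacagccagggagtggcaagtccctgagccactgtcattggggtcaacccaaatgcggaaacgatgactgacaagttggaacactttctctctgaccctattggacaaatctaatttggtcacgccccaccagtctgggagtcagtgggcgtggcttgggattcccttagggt
Cox8b (chr7:140900447-140900696, minus strand): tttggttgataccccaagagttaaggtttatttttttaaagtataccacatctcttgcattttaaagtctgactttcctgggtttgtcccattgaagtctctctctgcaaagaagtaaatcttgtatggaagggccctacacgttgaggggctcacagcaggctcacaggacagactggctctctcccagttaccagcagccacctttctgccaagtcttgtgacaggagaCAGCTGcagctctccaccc
Ucp1 (chr8:83290098-83290347, plus strand): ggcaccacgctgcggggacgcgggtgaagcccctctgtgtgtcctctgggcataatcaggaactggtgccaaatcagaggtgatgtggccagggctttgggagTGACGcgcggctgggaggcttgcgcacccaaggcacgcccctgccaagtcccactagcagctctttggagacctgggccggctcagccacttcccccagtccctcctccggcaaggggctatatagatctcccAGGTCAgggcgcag
Dio2 (chr12:90739039-90739288, minus strand): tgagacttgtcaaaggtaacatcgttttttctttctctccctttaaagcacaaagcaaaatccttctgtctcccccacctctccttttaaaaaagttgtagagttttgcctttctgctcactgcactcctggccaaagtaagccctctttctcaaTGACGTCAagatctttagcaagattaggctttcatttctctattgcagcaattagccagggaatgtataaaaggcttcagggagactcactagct

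Cox7a1 held none of these motifs in that stretch and Cox8b held CAGCTG once. Ucp1 held TGACG and AGGTCA once each. Dio2 held TGACG on both strands at overlapping bases, which together spell the full palindromic cAMP response element TGACGTCA. Over 32851 promoter stretches of the same length, 14.0% held AGGTCA, 17.8% TGACG and 13.0% CAGCTG. A match is a description of letters, not of a bound site.

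The libraries stood apart in several ways that touch these genes. Total counts were 42861980 to 47208779 in double mutants and 65730552 to 85568269 in ApoE-/-. ApoE-/- 1 had 474 CPM (counts scaled to library size with TMM factors, used throughout) of the X-inactivation RNA Xist and 0.143 CPM of the Y-linked Ddx3y. In the other 5 libraries Xist was at 0.497 to 6.21 CPM and Ddx3y at 70.1 to 136 CPM, so the female pattern was in 0 of 3 double mutant and 1 of 3 ApoE-/- libraries. The markers of fat cells of any kind (Adipoq, Plin1, Fabp4, Cidec, Lipe) summed to 4879, 5015 and 4678 CPM in the double mutants 1, 2 and 3, and to 5168, 691 and 629 CPM in ApoE-/- 1, 2 and 3. The 5 smooth muscle markers, which define the tissue named by the labels, summed to 7879 to 8941 CPM in the double mutants, and to 3923, 17125 and 25100 CPM in ApoE-/- 1, 2 and 3. Il16 was at 7.93, 12.1 and 12.2 CPM in double mutants, against 28.3, 28.7 and 15.1 CPM in ApoE-/- (log2 fold change -1.16, SE 0.32, adjusted p = 0.163). It did not pass in edgeR but did in DESeq2 (-1.18, adjusted p = 0.0267), and the labels do not say which part of the gene was removed. Apoe, targeted in both groups, was at 138, 183 and 137 CPM in double mutants, against 45.0, 24.9 and 20.9 CPM in ApoE-/- (log2 fold change 2.34, SE 0.33, adjusted p = 0.0369). That call was lost without any 1 double mutant library (adjusted p = 0.194 to 0.196 in edgeR), without ApoE-/- 2 (0.138) and without ApoE-/- 3 (0.0638).

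With all libraries in, edgeR's quasi-likelihood test called 0 of the 10 thermogenic genes at an adjusted p of 0.05, while it called 238 of 19833 tested genes, 1.2%. At an unadjusted p under 0.05 there were 2 of the 10, Cox7a1 and Cox8b, against 3154 of the 19833 tested genes. Fitted changes are log2 fold changes of double mutants over ApoE-/-, so a positive one means higher in double mutants. Of the 10, 7 were positive, against 9212 of the 19833 tested genes. The median of the 10 was 0.41, against -0.05 over all tested genes. Every double mutant library lay above every ApoE-/- library for 2 of the 10, against 14.9% of tested genes, and below for 0 of the 10, against 11.5%. DESeq2 called both Cox7a1 and Cox8b higher (4.77% of its genes were called higher) and limma-voom called Cox7a1 (1.95%).

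**Figure D1:**
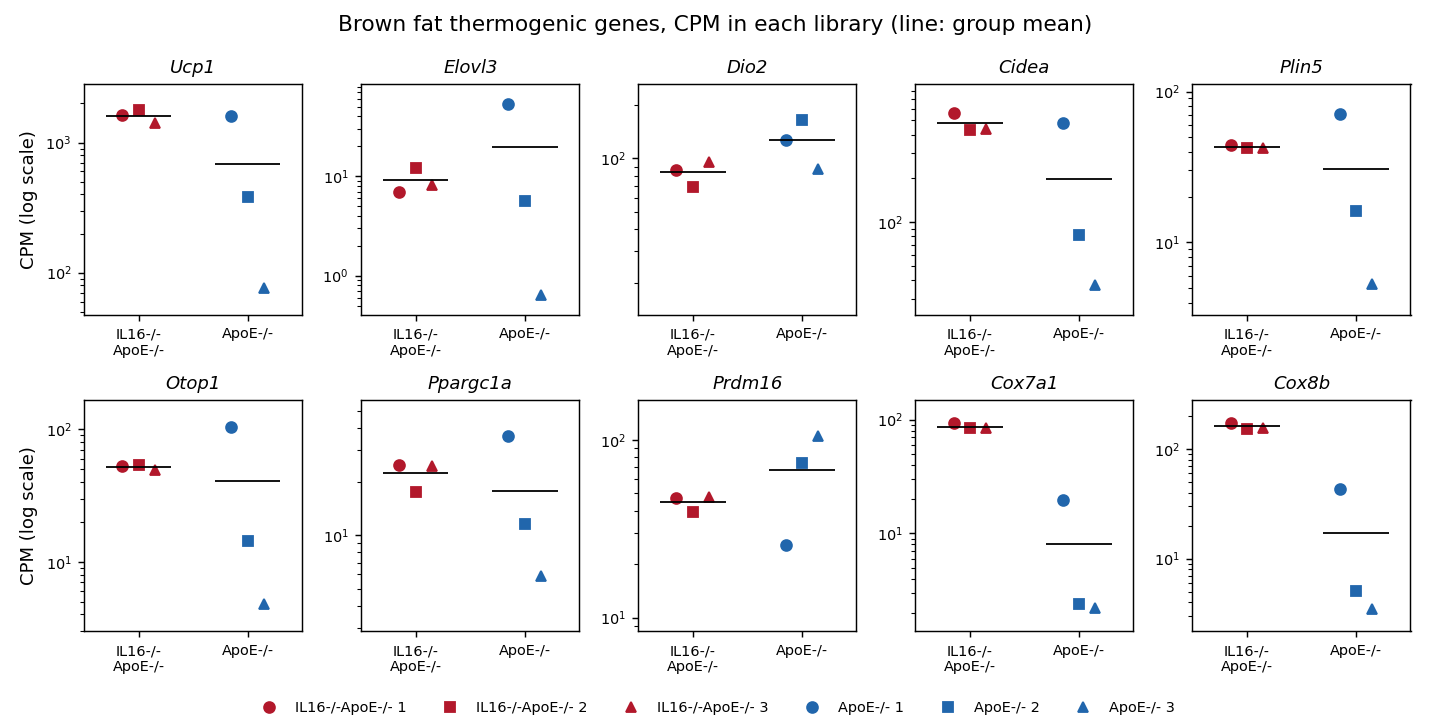
CPM on a log axis of the 10 thermogenic genes in each of the 3 IL16-/-ApoE-/- (red) and 3 ApoE-/- (blue) libraries, with lines at the group means. The double mutant libraries lie close together, and ApoE-/- 1 lies apart from ApoE-/- 2 and 3 for most genes. The groups are separate for Cox7a1 and Cox8b, 2 of the 10. Of tested genes, 14.9% have every double mutant library above every ApoE-/- library.

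Ucp1 (ENSMUSG00000031710, GRCm38 chromosome 8, 83290352 to 83298452, plus strand), the uncoupling protein itself, had the highest level of the 10 per length of transcript. CPM of Ucp1 were 1638, 1777 and 1412 in double mutants 1, 2 and 3, and 1592, 385 and 75.8 in ApoE-/- 1, 2 and 3. ApoE-/- 1 lay within the range of the double mutants, while ApoE-/- 2 and 3 were the lowest. The means were 1609 ± 184 CPM in the double mutants and 684 ± 801 CPM in ApoE-/- (SD, n = 3 each), and the log2 fold change of 1.23 (SE 0.95, adjusted p = 0.550) did not pass. The coefficient of variation was 11.4% among double mutants and 117% among ApoE-/-.

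Cidea (ENSMUSG00000024526, chromosome 18, 67343604 to 67367785, plus strand), a protein of lipid droplet fusion that marks brown fat in mice, also had its lowest values in ApoE-/- 2 and 3. It was at 558, 433 and 438 CPM in the double mutants, and at 478, 81.5 and 37.1 CPM in ApoE-/- 1, 2 and 3. The groups overlapped through ApoE-/- 1 (log2 fold change 1.26, SE 0.89, adjusted p = 0.511). Plin5, a lipid droplet coat protein that ties droplets to mitochondria (ENSMUSG00000011305, chromosome 17, 56111601 to 56117596, minus strand), had 44.3, 42.1 and 42.1 CPM in the double mutants, and 70.5, 16.2 and 5.31 CPM in ApoE-/- 1, 2 and 3. Its double mutant values differed by 1.05-fold at most and sat between ApoE-/- 1 and the other two ApoE-/- libraries (0.48, SE 0.82, adjusted p = 0.793). Otop1, a proton channel enriched in brown fat (ENSMUSG00000051596, chromosome 5, 38275972 to 38304217, plus strand), was at 52.9, 54.0 and 49.2 CPM in the double mutants, and at 104, 14.5 and 4.77 CPM in ApoE-/- 1, 2 and 3. It too had ApoE-/- 1 on top and ApoE-/- 3 at the bottom (0.34, SE 0.99, adjusted p = 0.882). The fitted changes of Plin5 and Otop1 turned to -0.021 and -0.19 without ApoE-/- 3.

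Elovl3, the enzyme that lengthens very long chain fatty acids and is induced by cold in brown fat, had the widest range of the 10 (ENSMUSG00000038754, chromosome 19, 46131897 to 46135694, plus strand). It was at 7.03, 12.2 and 8.24 CPM in the double mutants, and at 53.5, 5.62 and 0.646 CPM in ApoE-/- 1, 2 and 3, the last from 52 counts. ApoE-/- 1 was 82.8-fold above ApoE-/- 3 and 5.84-fold above the double mutant mean. The log2 fold change of -1.12 (SE 1.29, adjusted p = 0.685) did not pass, and without ApoE-/- 1 it was 1.55. The elongase Elovl6 of fatty acid synthesis also had ApoE-/- 1 highest and ApoE-/- 3 lowest, at 68.1, 80.6 and 85.4 CPM in the double mutants and 290, 40.0 and 7.44 CPM in ApoE-/- 1, 2 and 3.

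The regulators of the program did not share one order. Ppargc1a, the coactivator that drives mitochondrial biogenesis (ENSMUSG00000029167, chromosome 5, 51454250 to 51567726, minus strand), had 24.7, 17.5 and 24.5 CPM in the double mutants, and 35.9, 11.5 and 5.89 CPM in ApoE-/- 1, 2 and 3 (log2 fold change 0.32, SE 0.62, adjusted p = 0.817, and -0.10 without ApoE-/- 3). ApoE-/- 1 was its highest library and ApoE-/- 2 and 3 its lowest, as for Adipoq. Prdm16, the zinc finger factor that sets brown fat identity and is also expressed in arteries (ENSMUSG00000039410, chromosome 4, 154316125 to 154636873, minus strand), did not share this. It was at 47.0, 39.1 and 47.8 CPM in the double mutants, and at 25.7, 73.7 and 105 CPM in ApoE-/- 1, 2 and 3 (-0.61, SE 0.47, adjusted p = 0.547). Its lowest library was ApoE-/- 1 and its highest ApoE-/- 3, as for the smooth muscle myosin Myh11, at 2328, 2031 and 2345 CPM in the double mutants and 1158, 6355 and 8497 CPM in ApoE-/-. Over the 6 libraries, which fall into a fat-rich set of 4 and a fat-poor pair, log2 CPM of Prdm16 ran with Myh11 (Pearson r = 0.98) and against Ucp1 (r = -0.88), given as a description without a test. Mecom, the nearest relative of Prdm16, was at 27.0, 28.2 and 28.8 CPM in the double mutants, and at 23.8, 33.3 and 40.8 CPM in ApoE-/- 1, 2 and 3.

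Dio2, the deiodinase that activates thyroid hormone in brown fat (ENSMUSG00000007682, chromosome 12, 90724552 to 90738438, minus strand), followed neither Adipoq nor Myh11. It was at 86.3, 69.0 and 96.0 CPM in the double mutants, and at 127, 165 and 86.9 CPM in ApoE-/- 1, 2 and 3. The means were 83.8 ± 13.7 CPM in the double mutants and 126 ± 39.0 CPM in ApoE-/- (SD, n = 3 each). The log2 fold change was -0.59 (SE 0.27, adjusted p = 0.348 in edgeR). ApoE-/- 2, one of the fat-poor libraries, had the highest value, and log2 CPM of Dio2 had r = -0.29 with Adipoq over 6 libraries, given without a test. Per length of transcript it was the fourth most abundant of the 10 in ApoE-/- and the seventh in double mutants.

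Cox7a1 and Cox8b, the subunits of cytochrome c oxidase found in heart, skeletal muscle and brown fat, were the pair with separate groups. Such separation upward was seen in 14.9% of tested genes. Cox7a1 (ENSMUSG00000074218, chromosome 7, 30184144 to 30186078, plus strand) was at 92.6, 84.5 and 83.8 CPM in the double mutants, and at 19.5, 2.41 and 2.20 CPM in ApoE-/- 1, 2 and 3. The ApoE-/- values rested on 1633, 168 and 177 counts. The log2 fold change was 3.43 (SE 0.91, adjusted p = 0.154 in edgeR, 0.000276 in DESeq2 and 0.0410 in limma-voom). Cox8b (ENSMUSG00000025488, chromosome 7, 140898945 to 140900446, minus strand) had 174, 153 and 156 CPM in the double mutants, and 43.3, 5.08 and 3.48 CPM in ApoE-/- 1, 2 and 3. Its log2 fold change was 3.22 (SE 0.99, adjusted p = 0.206 in edgeR, 0.00217 in DESeq2 and 0.0777 in limma-voom). In ApoE-/- 1, whose Ucp1 and fat markers were as high as in double mutants, the genes were at 0.224-fold and 0.269-fold of the double mutant mean. That is 1 library, the one with the female pattern, and the part of fat content was not tested.

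The 10 genes were also set against adiponectin (Adipoq), a transcript of all fat cells, and the ratios of Cox7a1, Cox8b and Ucp1 are given. Counts of Cox7a1 per count of Adipoq were 0.244, 0.230 and 0.259 in double mutants, and 0.0360, 0.0366 and 0.0443 in ApoE-/- 1, 2 and 3. Those of Cox8b were 0.457, 0.417 and 0.484 in double mutants, and 0.0801, 0.0770 and 0.0700 in ApoE-/-. Both ratios were alike in the 3 ApoE-/- libraries, where Adipoq itself was at 541, 66.1 and 49.8 CPM. The mean ratios of Cox7a1 and Cox8b were 6.26-fold and 5.98-fold higher in double mutants. Ucp1 per Adipoq was 4.31, 4.83 and 4.36 in double mutants, and 2.94, 5.82 and 1.52 in ApoE-/- 1, 2 and 3. That overlapped (difference in log2 ratio 0.60, exact two-sided permutation p = 0.4). Of the 10 genes, only Cox7a1 and Cox8b had the ratio to Adipoq higher in every double mutant library, against 2.43% of tested genes. Among tested genes of at most 500 bases, as both are, the share was 14.1%. With Plin1 below the line in place of Adipoq there were 4, Ucp1 and Cidea among them, against 3.1%. The difference in log2 ratio of Ucp1 was then 0.85 (exact two-sided permutation p = 0.1, the smallest possible here).

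Each of the pair was also set against the form of the same subunit that most tissues use. Cox7a1 made up 50.0%, 49.0% and 49.7% of Cox7a1 plus Cox7a2 counts in double mutants, and 23.1%, 9.55% and 8.86% in ApoE-/- 1, 2 and 3. Cox8b made up 47.5%, 45.5% and 47.5% of Cox8b plus Cox8a counts in double mutants, and 23.6%, 13.7% and 6.61% in ApoE-/- 1, 2 and 3. The means differed by 35.7 and 32.2 percentage points. Both shares were separate between the groups, at an exact two-sided permutation p = 0.1 each, the smallest that 3 against 3 allows (0.15 adjusted over 3 ratios). Cox7a2 and Cox8a were at 84.8 to 92.5 and 173 to 192 CPM in the double mutants, and at 22.6 to 65.0 and 31.9 to 140 CPM in ApoE-/-.

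**Figure D2:**
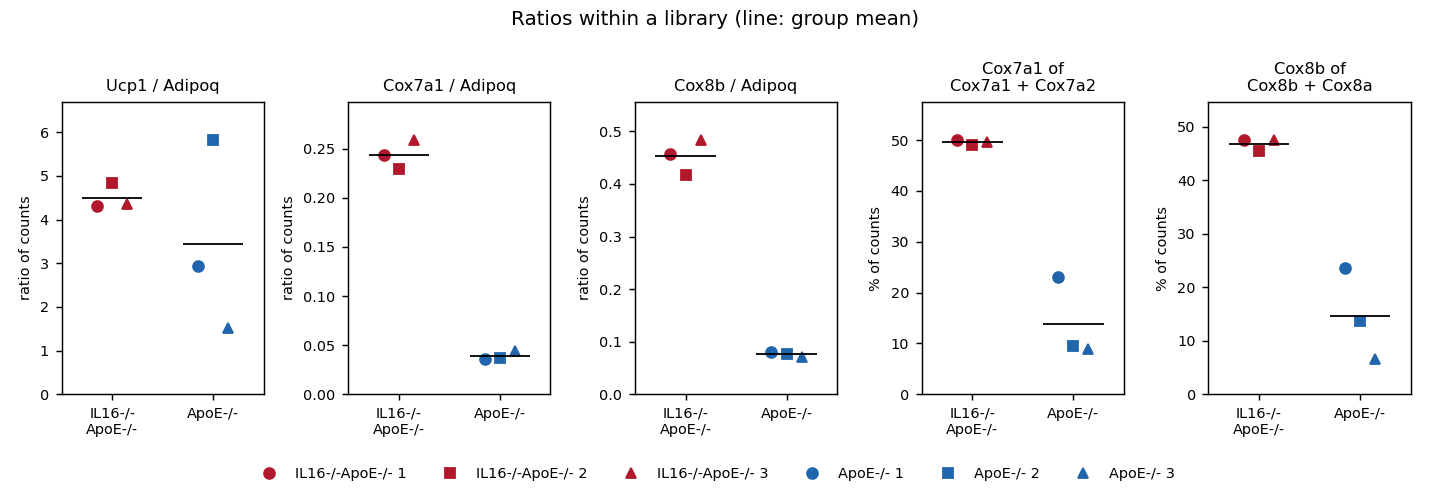
Counts of Ucp1, Cox7a1 and Cox8b per count of Adipoq, and the percentage that Cox7a1 and Cox8b make up of their subunit pair, in each IL16-/-ApoE-/- (red) and ApoE-/- (blue) library, with lines at the group means. Ucp1 overlaps between the groups, while the Cox7a1 and Cox8b ratios lie at 0.230 to 0.484 in double mutants and at 0.0360 to 0.0801 in ApoE-/-.

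Several measures moved with the pair. Their transcripts are the shortest of the 10, with 439 and 360 bases, and short transcripts as a whole were higher in double mutants. Among 911 tested genes of at most 500 bases, the median log2 fold change was 1.14 and 50.8% had every double mutant library above every ApoE-/- library. Among 4041 genes over 4000 bases these were -0.22 and 7.42%. In the Adipoq ratio, 14.1% of the genes of at most 500 bases were separate upward. With the trend on length removed in each library, Cox7a1 was at 2.55 (SE 0.77, adjusted p = 0.232) and Cox8b at 2.19 (SE 0.84, adjusted p = 0.318). Markers of heart and skeletal muscle, which use the same subunits, were read beside the pair. Of 8 cardiac markers 2 rose in edgeR, against 1.2% of tested genes called, and all 8 had every double mutant library above every ApoE-/- library, against 14.9%. Their summed level was 437, 215 and 366 CPM in the double mutants 1, 2 and 3, and 84.3, 32.4 and 48.1 CPM in ApoE-/-. Of 8 skeletal markers 0 passed in edgeR, 7 had an unadjusted p under 0.05, 5 were called by DESeq2 and 0 by limma-voom, and 7 were separate upward. Over all genes, 3154 of 19833 had such a p, DESeq2 called 1480 of 23763, and 14.9% were separate upward. The skeletal markers summed to 72.4, 18.2 and 310 CPM in the double mutants 1, 2 and 3, and to 9.92, 4.30 and 6.65 CPM in ApoE-/-. Over the same double mutant libraries Cox7a1 and Cox8b varied by no more than 1.11-fold and 1.13-fold. The part of muscle in their level was not tested. The 8 kidney tubule markers summed to 472 to 525 CPM in the double mutants and to 0.385 to 1.28 CPM in ApoE-/-, where Kap, Umod, Slc12a1, Miox and Slc22a12 had no count. The part of kidney RNA was not tested either.

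**Figure D3:**
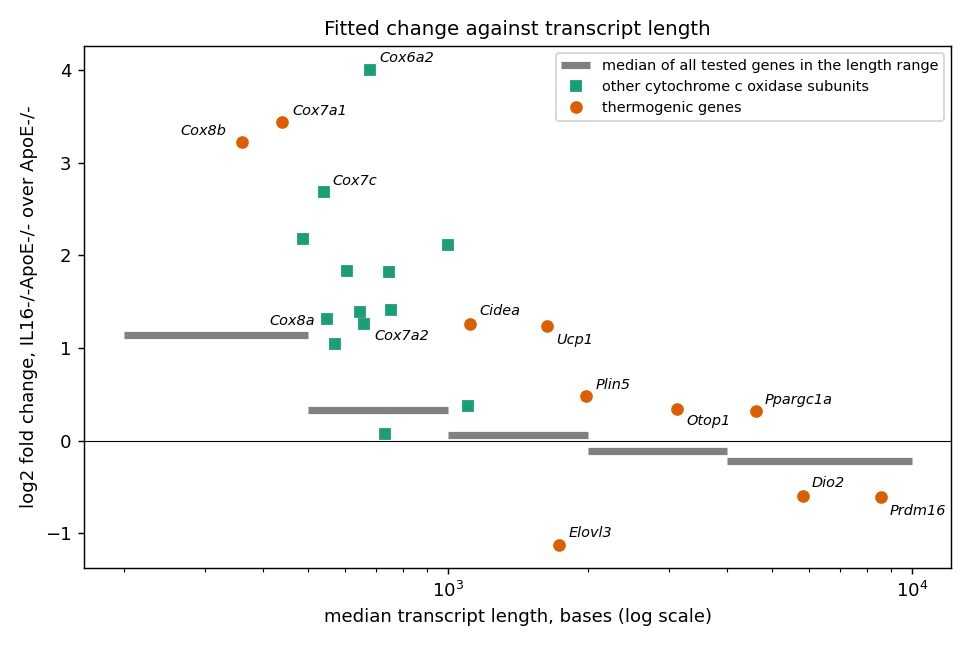
Fitted log2 fold change of double mutants over ApoE-/- against transcript length on a log axis for the 10 thermogenic genes (orange) and 13 other listed cytochrome c oxidase genes (green), with grey bars at the median of all tested genes in 5 length ranges. Cox7a1 and Cox8b, at 3.43 and 3.22, lie above the 1.14 median of genes of at most 500 bases, and the medians fall with length.

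A list of 13 other genes named for subunits of cytochrome c oxidase, the enzyme of the last step of respiration, was also described. The list does not hold every such gene, and Cox8c is among those left out. Of 13, 0 passed in edgeR, 9 had an unadjusted p under 0.05, and 6 were called by DESeq2 and 1 by limma-voom. Over all genes, 3154 of 19833 had such a p, DESeq2 called 1480 of 23763 and limma-voom called 409 of 19833. All 13 were positive with all libraries in, against 9212 of 19833 tested genes. The median of the 13 was 1.41, against -0.05 over all tested genes. Every double mutant library lay above every ApoE-/- library for 11, against 14.9% of tested genes. The share was 50.8% of genes of at most 500 bases and 30.4% of those over 500 and up to 1000 bases. Not all of the 13 are of at most 500 bases (Cox6a2 has 680). Cox7c was at 205, 209 and 206 CPM in the double mutants, and at 57.1, 16.6 and 22.9 CPM in ApoE-/- 1, 2 and 3 (2.68, SE 0.48, adjusted p = 0.0667). Cox6a2, the heart and muscle form of another subunit, was at 7.60, 2.65 and 11.2 CPM in the double mutants, and at 1.00, 0.201 and 0.124 CPM in ApoE-/- (4.00, SE 0.97, adjusted p = 0.128). Cox6a2 varied among double mutants in the order of the skeletal markers, and the part of muscle in its level was not tested. Per Adipoq, 4 of these 13 were separate upward, against 2.43% of tested genes, namely Cox6a2, Cox6b1, Cox7b and Cox7c, named after their values were seen. The last 3 had mean ratios 1.74-fold to 2.14-fold higher in double mutants, against 8.12-fold for Cox6a2. With the length trend removed the list median was 0.98, and Cox4i2 turned to -0.56. Without ApoE-/- 1 it was at -0.19.

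The fitted changes of most of these genes, though not of Dio2, moved when ApoE-/- 1 was left out. Without that library, the 3 double mutants were set against 2 fat-poor ApoE-/- libraries, and 8 of the 10 genes passed. Of these, 7 were higher, against 13.1% of 20177 tested genes. They were Cox7a1 (log2 fold change 5.24, SE 0.14, adjusted p = 0.000208), Cox8b (5.23, SE 0.22, adjusted p = 0.000477), Cidea (3.00, SE 0.38, adjusted p = 0.00491), Ucp1 (2.80, SE 0.70, adjusted p = 0.0362), Otop1 (2.43), Plin5 (1.99) and Ppargc1a (1.35). Prdm16 fell by 1.00 on the log2 scale (SE 0.18, adjusted p = 0.0128), against 12.8%. Elovl3 (1.55, adjusted p = 0.240) and Dio2 (-0.59, adjusted p = 0.184) did not pass. All 12 fat cell genes of any kind were called higher in the same fit, with a median of 2.23, beside 2.21 for the 10 thermogenic genes and 0.01 over all tested genes. With the length trend removed as well, 6 of the 10 were higher, against 10.3%, and Ucp1 (2.61, adjusted p = 0.0518) and Prdm16 (-0.70, adjusted p = 0.0788) did not pass. Cox7a1 and Cox8b were then at 3.94 and 3.74. Without any other single library 0 of the 10 passed.

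**Figure D4:**
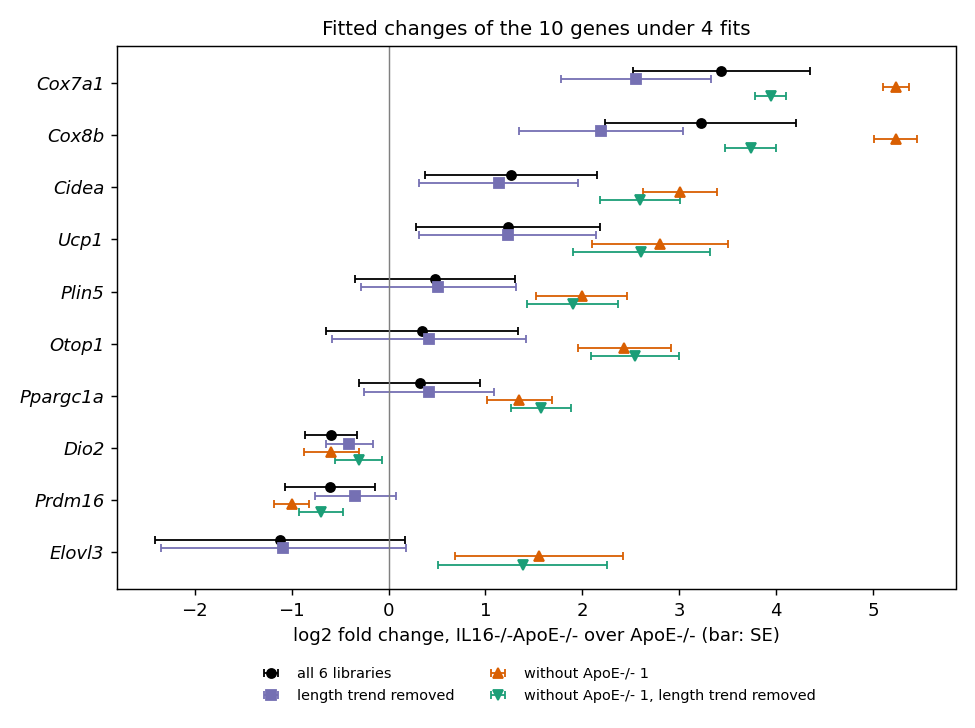
Log2 fold changes of double mutants over ApoE-/- for the 10 genes (points) with their SE (bars) in 4 edgeR fits, namely all 6 libraries, the length trend removed, ApoE-/- 1 left out, and both. Cox7a1 and Cox8b lie above 2 in all 4 fits, and leaving out ApoE-/- 1 moves Elovl3 across 0, to 1.55.

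Per kilobase of transcript, a scale on which genes can be compared, the order in double mutants was Ucp1 (984 ± 112 CPM per kb), Cox8b (448 ± 30.3), Cidea (427 ± 63.6), Cox7a1 (198 ± 11.2), Plin5 (21.6 ± 0.634), Otop1 (16.7 ± 0.803), Dio2 (14.4 ± 2.36), Elovl3 (5.28 ± 1.57), Prdm16 (5.21 ± 0.562) and Ppargc1a (4.82 ± 0.885; SD, n = 3). Neighbours overlapped between Cox8b and Cidea, between Otop1 and Dio2, and among the last 3. In ApoE-/- the order was Ucp1 (418 ± 490), Cidea (178 ± 218), Cox8b (48.0 ± 62.6), Dio2 (21.7 ± 6.70), Cox7a1 (18.3 ± 22.6), Plin5 (15.5 ± 17.6), Otop1 (13.1 ± 17.4), Elovl3 (11.5 ± 16.8), Prdm16 (7.94 ± 4.64) and Ppargc1a (3.85 ± 3.46; SD, n = 3). There every pair of neighbours overlapped. These levels carry the length trend given above.

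Other genes of the brown program were described from lists. Among 18 genes of brown identity and secreted factors, 15 were tested, 0 passed in edgeR, and 1 had an unadjusted p under 0.05 and a DESeq2 call (0 in limma-voom). That was Fabp3, a fatty acid carrier of heart, muscle and brown fat, at 220, 216 and 209 CPM in the double mutants, and at 108, 32.3 and 13.4 CPM in ApoE-/- 1, 2 and 3 (log2 fold change 2.07, SE 0.71, adjusted p = 0.243). Over the tested genes of the list the median was 0.55, against -0.05 over all tested genes. Of all 19833 tested genes, 3154 had an unadjusted p under 0.05, and DESeq2 called 1480 of 23763. Letmd1, a protein of the mitochondrial inner membrane, was at 174, 177 and 157 CPM in the double mutants, and at 207, 81.9 and 39.5 CPM in ApoE-/- 1, 2 and 3 (0.63, SE 0.56, adjusted p = 0.599). Zic1, a marker of the interscapular brown depot, had no count in any double mutant library, which allows up to 0.0630 to 0.0698 CPM per library, and was at 0 to 0.172 CPM in ApoE-/-. The hormone Fgf21 also had no count in double mutants. Among 14 genes of fuel uptake and fatty acid oxidation, 0 passed in any of the 3 tools and 0 had an unadjusted p under 0.05 (median 0.67). They were led by the carnitine carrier Slc25a20 (0.97, SE 0.71, adjusted p = 0.527) and the dehydrogenase Acadl (0.93, SE 0.73, adjusted p = 0.553).

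Of 16 transcriptional regulators of brown fat, 0 passed in edgeR, DESeq2 or limma-voom, and 1 had an unadjusted p under 0.05 (median 0.19). That was Zfp516, a zinc finger activator of Ucp1, at 21.5, 20.2 and 22.6 CPM in the double mutants, and at 23.3, 36.1 and 36.4 CPM in ApoE-/- 1, 2 and 3 (-0.57, SE 0.21, adjusted p = 0.263). Ehmt1, a methyltransferase partner of Prdm16, was at 27.1 to 31.2 CPM in the double mutants and 34.0 to 40.7 CPM in ApoE-/- (-0.33, SE 0.14, adjusted p = 0.321). Every double mutant library lay below every ApoE-/- library for 3 of the 16, against 11.5% of tested genes. The third was Nrf1, named after its values were seen, at 15.7 to 19.0 CPM in the double mutants and 19.1 to 20.4 CPM in ApoE-/-. Of 10 genes of the beta-adrenergic input, 0 passed in the 3 tools and 1 had an unadjusted p under 0.05 (median 0.00). That was Creb1, the factor that binds cAMP response elements, at 49.0, 44.3 and 51.7 CPM in the double mutants, and at 52.4, 69.7 and 89.1 CPM in ApoE-/- (-0.54, SE 0.22, adjusted p = 0.295). The kinase subunit Prkaca was at 118, 108 and 95.2 CPM in the double mutants, and at 98.4, 64.4 and 68.8 CPM in ApoE-/- (0.48, SE 0.21, adjusted p = 0.337). Adrb3, the receptor of fat cells, named after its values were seen, was at 64.3, 56.7 and 62.7 CPM in the double mutants, and at 125, 21.3 and 21.8 CPM in ApoE-/- 1, 2 and 3 (0.13, SE 0.70, adjusted p = 0.940). The 8 sympathetic nerve and chromaffin markers summed to 85.0, 96.5 and 47.4 CPM in the double mutants, and to 30.2, 6.78 and 8.58 CPM in ApoE-/-. Of them, 5 were separate upward, against 14.9% of tested genes, 0 passed in edgeR, 4 had an unadjusted p under 0.05, 2 were called by DESeq2 and 0 by limma-voom. Over all genes, 3154 of 19833 had such a p and DESeq2 called 1480 of 23763.

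Heat production that does not use UCP1 was read from the creatine cycle. Of 7 genes, 0 passed in edgeR, 2 had an unadjusted p under 0.05 and 1 was called by DESeq2 (0 by limma-voom, median 0.62). For this and the next lists, all genes gave 3154 of 19833 at such a p. DESeq2 called 1480 of 23763 and limma-voom 409 of 19833. Mitochondrial creatine kinase Ckmt2 was at 9.38, 2.77 and 22.2 CPM in the double mutants 1, 2 and 3, and at 2.53, 0.172 and 0.460 CPM in ApoE-/- (3.43, SE 1.18, adjusted p = 0.243), in the order of the skeletal markers among double mutants. Its relative Ckmt1 was at 1.44 to 2.19 CPM in the double mutants and 0.547 to 0.975 CPM in ApoE-/- (1.18, SE 0.41, adjusted p = 0.250). Of 4 beige fat markers, 3 were tested, with 0 calls in the 3 tools and 0 at an unadjusted p under 0.05. Tnfrsf9 was at 4.40, 2.98 and 4.21 CPM in the double mutants, and at 2.69, 0.688 and 0.199 CPM in ApoE-/- (1.69, SE 0.87, adjusted p = 0.390), and Tbx1 overlapped (-0.29, SE 0.45, adjusted p = 0.777). Among 10 white fat markers 1 rose in edgeR, against 1.2% of tested genes called, while 3 had an unadjusted p under 0.05, DESeq2 and limma-voom called 2 each, and 4 were separate upward, against 14.9%. The 1 was the hormone leptin (Lep), at 22.0, 18.7 and 19.3 CPM in double mutants, against 0.871, 1.09 and 2.05 CPM in ApoE-/- (3.90, SE 0.38, adjusted p = 0.0168). Without any 1 double mutant library, 0 genes of the whole table passed, Lep included. Of 12 genes of fat cells of any kind, 0 passed in the 3 tools and 0 had an unadjusted p under 0.05 (median 0.65). Fabp4 was at 3490, 3635 and 3402 CPM in the double mutants, and at 3002, 365 and 426 CPM in ApoE-/- (1.47, SE 0.85, adjusted p = 0.431). The carbonic anhydrase Car3 overlapped (0.93, SE 0.71, adjusted p = 0.544).

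Among relatives of the 10 genes, 21 of 25 were tested and 0 passed in edgeR, with 4 at an unadjusted p under 0.05 and 1 call each in DESeq2 and limma-voom. Over all genes these were 3154 of 19833, 1480 of 23763 and 409 of 19833. The uncoupling proteins Ucp2 and Ucp3 were at 200 to 251 and 41.2 to 56.3 CPM in the double mutants, and at 30.9 to 234 and 4.45 to 69.1 CPM in ApoE-/-. Cideb, the liver form of the droplet proteins, was at 2.33, 2.14 and 1.51 CPM in the double mutants, and at 0.298, 0.115 and 0.0994 CPM in ApoE-/- (3.52, SE 0.59, adjusted p = 0.0541). The coat protein Plin4 was at 362, 381 and 401 CPM in the double mutants, and at 294, 352 and 368 CPM in ApoE-/- 1, 2 and 3, without the low values that Plin5 had in ApoE-/- 2 and 3. The coactivator Ppargc1b was at 12.4 to 13.2 CPM in the double mutants and 4.18 to 18.6 CPM in ApoE-/-.

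The genes nearest to Ucp1 in pattern over the 6 libraries, among 15471 with a mean of at least 1 CPM, were the tubulin Tubb5 (Pearson r = 0.999), Pm20d1, Kng2, Mcpt4 and Npc2 (r of 0.997 to 0.998), given without a test. Pm20d1, an enzyme that makes uncoupling N-acyl amino acids, was at 10.6, 11.6 and 9.35 CPM in the double mutants, and at 10.8, 3.05 and 0.472 CPM in ApoE-/- 1, 2 and 3. The mast cell protease Mcpt4 was at 23.6, 27.9 and 20.9 CPM in the double mutants, and at 23.8, 8.99 and 2.20 CPM in ApoE-/-. Tubb5 had the same order over a much smaller range, 233 to 240 CPM in the double mutants and 173 to 235 CPM in ApoE-/-. Reads of a member and of an overlapping gene could be mixed where strand was not used in counting. The overlapping genes of Cidea, Elovl3, Dio2, Ppargc1a and Prdm16 held at most 160 counts in a library, and none overlapped the other 5.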

How the data were processed

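RNA was measured in 6 mouse aorta samples, grouped by their titles. The authors deposited raw counts per gene for the 6 samples, judged from whole numbers and unequal totals. Per the submitters' processing notes the tools included Cutadapt, HISAT2 and StringTie (no versions). Per the labels' protocols the libraries were made with UDG digestion, which marks strand. No source used here names the build, annotation, counting program or strand setting. IDs were matched to GENCODE M21 (GRCm38), which gave 55141 of 55401 a symbol, and its positions and median basic transcript lengths. Genes were kept by filterByExpr (minimum count 10, minimum total 15) and scaled by TMM. The groups were compared over all kept genes with edgeR's quasi-likelihood test (robust, two-sided, without covariates), and p-values were adjusted by Benjamini-Hochberg, threshold 0.05. The SE is the log2 fold change divided by the root of F. Log2 CPM used a prior count of 2, and log ratios and ratios to Adipoq or Plin1 added 0.5 to each count. Ratios were compared by exact permutation over samples. Floors for 0 counts use 3 counts and cover counting error only. The script was tested on simulated data with equal spread in both groups. The biological coefficient of variation estimated here was 0.209 in double mutants and 0.590 in ApoE-/-. That test therefore does not cover unequal spread. Same-numbered samples did not deviate together (correlations -0.0701, -0.0185 and -0.00310 over 15508 genes), so numbers were not used as pairs. Always named are the 10 genes, Il16 and Apoe; from each list, up to 3 called genes, or the 2 with the smallest p; tested relatives where they stand beside a member (not all are named); and the 5 genes nearest to Ucp1. Members and lists were chosen with earlier results of these data known. Alternatives were RLE factors, unscaled library totals, omitting the filter or asking for 1 CPM in 3 libraries, DESeq2, limma-voom, a replicate block and each library left out. Removing the length trend (lowess, span 0.3, per library, as offsets) was added after seeing the data. Software was R 4.3.3, edgeR 4.0.16, limma 3.58.1, DESeq2 1.42.0, Python 3.11.15, scipy 1.17.1 and matplotlib 3.10.9.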

Additional observations from a re-analysis of the deposited data

How the results depend on the processing

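The 238 genes called in all became 1480 in DESeq2 and 409 in limma-voom. They became 4304 without ApoE-/- 1 and with the length trend removed. With each library left out in turn the count ran from 0, without any 1 double mutant library (1920 to 2042 genes at an unadjusted p under 0.05), to 5231 without ApoE-/- 1. It was 108 without ApoE-/- 2. The thermogenic genes called, 0 with all libraries, were 2 in DESeq2, 1 in limma-voom, 6 without ApoE-/- 1 and with the length trend removed, and 0 to 8 with each library left out. In the replicate block fit, 0 genes and 0 of the 10 were called by edgeR, with 2327 genes at an unadjusted p under 0.05. In DESeq2 Cidea got no p-value. The sign of Elovl3 turned in limma-voom (0.60), in the replicate block fit (0.77), without ApoE-/- 1 (1.55) and without it and the length trend (1.38). Ppargc1a turned without ApoE-/- 3 (-0.10), Otop1 without ApoE-/- 2 (-0.06) and without ApoE-/- 3 (-0.19), and Plin5 without ApoE-/- 3 (-0.021). With each library left out, log2 fold changes ran from -1.69 to 1.55 for Elovl3, from -0.10 to 1.35 for Ppargc1a, from -0.19 to 2.43 for Otop1 and from -0.021 to 1.99 for Plin5. The cause was not tested. The other 6 genes kept their direction in all 15 alternatives, Cox7a1 between 2.55 and 5.24 and Cox8b between 2.19 and 5.23. With a library left out, the share differences ran from 33.3 to 40.4 (Cox7a1) and from 28.2 to 36.7 (Cox8b) percentage points, and the Ucp1 to Adipoq log2 ratio difference from 0.12 to 1.09. The call of Apoe was lost in the replicate block fit (adjusted p = 0.179 in edgeR). The fewest counts of the 10 genes in any library were the 52 of Elovl3 in ApoE-/- 3, one of the deeper libraries.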
